A study of Sus scrofa with 6 samples.

Results

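Late pregnant sow ovary was compared with early pregnant sow ovary, and the difference was described gene by gene. Both groups were ovary tissue of pregnant sows, taken in late pregnancy for the one and in early pregnancy for the other, and each was measured on 1 array. These 2 arrays of the 6 in the series were identified by their titles. The other 4 arrays held ovary of non-pregnant sows and uterine tissue labelled myometrium at the 3 stages, and they are used below only for context. The study's design text counts 9 pigs, 3 at each stage, but the sources used here give neither breed, age nor day of pregnancy. They also do not say whether an array carried the RNA of 1 sow or of several combined. With 1 array a group there was no replicate check, so every ratio below describes these arrays and carries no p-value.

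In the sow, pregnancy depends on progesterone from the corpora lutea, the glands that form from ovulated follicles, from conception until farrowing. Luteal cells take up or make cholesterol, carry it into mitochondria and convert it to progesterone. In the pig they also make and store relaxin, the peptide hormone that loosens the birth canal, and release it before farrowing. The rest of the ovary holds small follicles, a collagen-rich stroma, smooth muscle and vessels. Each array therefore read a mixture of cells, in which fewer cells of a type and less RNA per cell cannot be told apart.

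The deposited values were MAS5 signals on a linear scale. Signals under a floor of 81.7, the 40th percentile of all signals, were raised to it before the log2 ratio of late over early pregnant ovary was taken. A gene counted as measured when either of the ovary arrays read it above that value, and "at least" marks a ratio whose dimmer side was raised to that floor. The brightest probe set stood for each gene. Signals of different genes come from different probes and are not compared with each other.

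The defining markers placed both arrays in ovary rich in luteal tissue. STAR, which carries cholesterol into mitochondria, had a signal of 25987 in late and 23450.5 in early pregnant ovary. RLN2, relaxin, had 29660.1 and 31899.6 in the same order. LHCGR, the luteinising hormone receptor, had 3309.5 and 3762, and FSHR, the follicle-stimulating hormone receptor of granulosa cells, had 281 and 296. FOXL2, a granulosa transcription factor, and KRT18, an epithelial keratin, lay under the floor on both arrays. In the tissue labelled myometrium the epithelial marker EPCAM had 9667 in late and 10845 in early pregnancy, which are high signals for a gene that smooth muscle lacks. No probe set was named here for MYH11, CD68 or CSF1R. Of the 4 genes given as markers of this comparison, HSD17B1 and TDH were higher and COL3A1 and CNN1 were lower in late pregnant ovary.

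The 2 arrays were close to each other, with Pearson's r of 0.967 on the log2 scale across 11733 probe sets, which are not independent replicates. The mean after trimming was 500.1 in late and 500.1 in early pregnant ovary, as all arrays had been scaled alike by the authors. Ribosomal RNA probe sets differed: the 18S signal was 1806 in late and 5393 in early pregnant ovary, and the 28S signal 812 and 1874. The ratio of 3' to 5' probe sets, which tracks RNA integrity, was 1.51 and 1.99 for GAPDH and 3.22 and 2.56 for actin. The part of these differences in the results was not tested.

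Among 5405 genes measured, 71 (1.31%) were 2-fold or more higher and 128 (2.37%) 2-fold or more lower in late pregnant ovary, and the median log2 ratio was 0.026. Over all 14775 measured probe sets, named or not, 221 (1.5%) were higher and 400 (2.71%) lower by 2-fold or more. For 39 genes at 2-fold or more a further measured probe set was available, and it went the same way in 37 and also reached 2-fold in 17. Some of these further probe sets were dim, and the floor shortened their ratios. The spread of a log2 ratio between probe sets of the same gene had an SD of 0.298. That spread covers the array measurement only, not animals or tissue pieces.

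**Figure D1:**
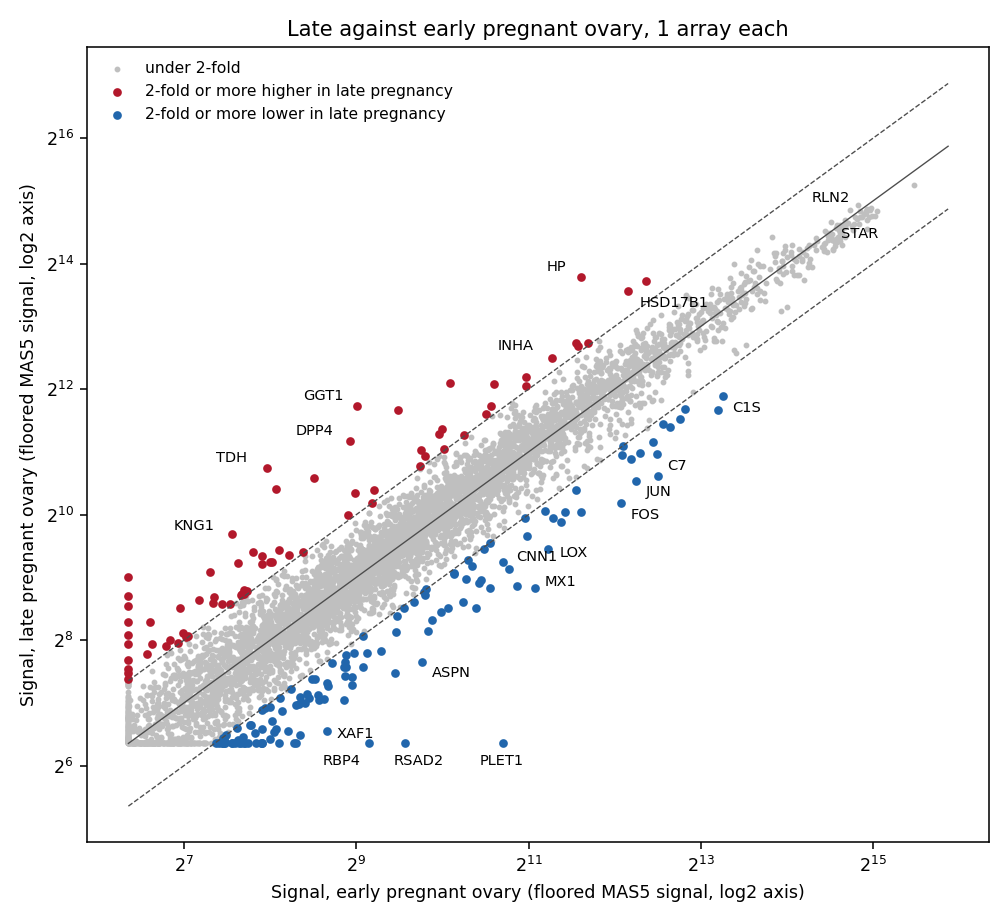
MAS5 signal in late pregnant ovary (vertical) against early pregnant ovary (horizontal), both on log2 axes and floored at 81.7, for the 5405 measured genes. Dashed lines mark 2-fold; 71 genes lie on or above the upper line (red) and 128 on or below the lower one (blue), while STAR and RLN2 lie close to the line of equal signal.

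The genes that turn cholesterol into progesterone were at near-equal levels in late and early pregnancy. Of 12 measured members of this list, 0 were 2-fold or more higher and 0 lower, with a median log2 ratio of 0.20. CYP11A1, which cuts the cholesterol side chain, had 11227 in late and 10179.6 in early pregnant ovary. HSD3B1, which makes progesterone from pregnenolone, had 16394 and 13015, a log2 ratio of 0.33. NR5A2, a nuclear receptor that drives steroidogenic genes, had the highest ratio of the list at 0.82, with 6326 and 3572. Its further probe sets had lower log2 ratios of 0.18, 0.28, 0.51 and 0.62. The electron carriers FDX1 and FDXR, which serve CYP11A1, had log2 ratios of 0.24 and 0.38, and TSPO, a mitochondrial membrane protein, had -0.28.

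Luteal hormones and their receptors also differed little. The 13 measured members included 0 genes higher and 0 lower by 2-fold, with a median of 0.053. Relaxin, given above, had a log2 ratio of -0.10, and non-pregnant ovary had a relaxin signal of 11029. INSL3, an insulin-like peptide of theca and luteal cells, had 3723 in late and 4552 in early pregnant ovary, a log2 ratio of -0.29. PCSK1, a convertase that cuts prohormones, had 7917 and 4848, a log2 ratio of 0.71. SCG5, a chaperone of another prohormone convertase, had a log2 ratio of 0.52, and CHGA, a protein of secretory granules, had at least 0.91 because the early array lay at the floor. AGT, angiotensinogen, had 0.78, and PTGFR, the prostaglandin F receptor through which luteolysis is triggered, had 0.17. None of these ratios, with the floor in place, reached 2-fold.

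Genes of oestrogen metabolism were higher in late pregnant ovary as a list. The list names 18 genes, of which 11 had a named probe set. All 9 measured members had ratios above 0, against 52.4% of all measured genes, and the list median was 0.59 on the log2 scale. HSD17B1, which reduces oestrone to the potent oestradiol, had a signal of 12061 in late and 4560.0 in early pregnant ovary, a log2 ratio of 1.40. Its signal in non-pregnant ovary was 7505, so the early pregnant array was the lowest of the 3. HSD17B2, which runs the reverse reaction and inactivates oestradiol, had 400.4 and 144, which is 2.78-fold higher. A further, dim probe set for HSD17B2 had 105 in late pregnant ovary and 38.8, under the floor, in early pregnant ovary, a log2 ratio of at least 0.36.

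The other members of the oestrogen list lay under 2-fold. CYP19A3, an aromatase that makes oestrogens from androgens, had 7198 in late and 5059.9 in early pregnant ovary, a log2 ratio of 0.51. The pig has several closely related aromatase genes, and the probe set may not tell them apart. HSD17B14, HSD17B12 and HSD17B4, dehydrogenases that act on steroids or fatty acids, had log2 ratios of 0.94, 0.71 and 0.59. CYP17A1, which makes androgens in theca cells, had 0.094, the lowest of the list.

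Among granulosa and follicle genes, INHA and FST reached 2-fold. INHA, the alpha subunit of inhibin, had 5803 in late and 2465 in early pregnant ovary, 2.35-fold higher. FST, follistatin, which binds activin, had 4219 and 2005, 2.10-fold higher, and its further probe set had a log2 ratio of 1.31. AMH, anti-Müllerian hormone of small growing follicles, had 395 and 209.5, a log2 ratio of 0.92. In non-pregnant ovary INHA had 6006 and FST had 4400.3, both closer to the late than to the early pregnant signal. The list as a whole had 2 of 14 measured members higher by 2-fold and 0 lower, against 1.31% and 2.37% of all measured genes. Its median was 0.22, and INHBA, an activin and inhibin beta subunit, had a log2 ratio of 0.22.

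Cholesterol supply was described in 2 lists. Of 13 measured enzymes and regulators of cholesterol synthesis, 10 had ratios above 0, against 52.4% of all measured genes. The list median was 0.36, and 1 of the 13 reached 2-fold. That gene was HSD17B7, which works in cholesterol synthesis and can also make oestradiol, with 2504 in late and 995 in early pregnant ovary. Its signal in non-pregnant ovary was 2681, so the early pregnant array was the low one. SQLE, an early step of the sterol branch, had a log2 ratio of 0.90, NSDHL 0.73, and INSIG1, a brake on the pathway, -0.31. Of 8 genes of cholesterol uptake and handling, 0 were higher and 0 lower by 2-fold, with a median of 0.066. SCARB1, the receptor for high-density lipoprotein, had 0.59, whereas VLDLR, a receptor for triglyceride-rich lipoproteins, had -0.75 and APOE, a lipoprotein ligand, -0.66.

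**Figure D2:**
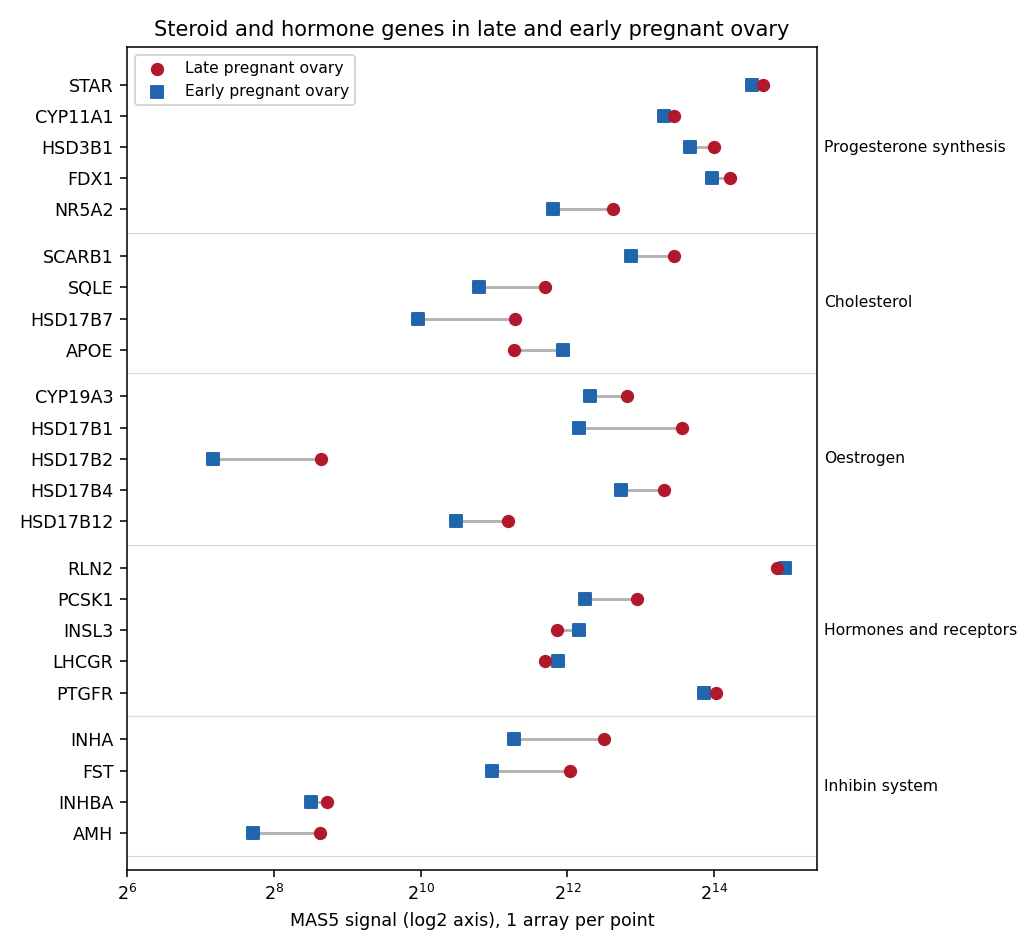
MAS5 signal on a log2 axis in late (red circles) and early (blue squares) pregnant ovary, 1 array per point, for genes of progesterone synthesis, cholesterol supply, oestrogen synthesis, hormones with their receptors, and the inhibin system. STAR, CYP11A1, RLN2 and PTGFR have nearly coinciding points, and HSD17B1, HSD17B2, HSD17B7, INHA and FST have late pregnant points at least 2-fold to the right.

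Prostaglandin enzymes were measured for few genes. PTGES, which makes prostaglandin E2, had 6808 in late and 3317 in early pregnant ovary, a log2 ratio of 1.04. PTGDS, which makes prostaglandin D2 and also carries lipids, had 348 and 1008, a log2 ratio of -1.54. These were the only members of the 6 measured in that list that reached 2-fold in either direction. Over all measured genes, 1.31% were higher and 2.37% lower by 2-fold.

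The genes with the highest ratios had varied known roles. TDH, threonine dehydrogenase, which starts the mitochondrial breakdown of threonine, had 1713 in late and 249 in early pregnant ovary, 6.88-fold higher. Its signal in non-pregnant ovary was 109.9, so the late array was the highest of the 3. GGT1, which cleaves extracellular glutathione, had 3397 and 516, 6.59-fold higher, and both of its further probe sets were more than 2-fold higher as well. In non-pregnant ovary GGT1 had 2085, so the early pregnant array was the low one.

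The membrane peptidases DPP4 and ENPEP were higher. DPP4, which trims dipeptides from peptide hormones and chemokines, had 2314 in late and 486 in early pregnant ovary, 4.76-fold higher. ENPEP, an aminopeptidase that acts on angiotensin, had 609.6 and 259, 2.36-fold higher. Both were lowest in non-pregnant ovary, at 172 for DPP4 and 121 for ENPEP. SCIN, which severs actin filaments, had 3264 and 716, 4.56-fold higher, and a further probe set had a log2 ratio of 1.96.

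A few genes better known from liver and plasma had high ratios. HP, haptoglobin, which binds free haemoglobin, had 14136 in late and 3129 in early pregnant ovary, 4.52-fold higher, and 672 in non-pregnant ovary. KNG1, kininogen, the precursor of bradykinin, had 829 and 188, 4.40-fold higher, with a further probe set at a log2 ratio of at least 2.46. TF, transferrin, which carries iron, was at least 4.55-fold higher, with 372 in late pregnant ovary and a signal under the floor in early pregnant ovary. AFM, afamin, a plasma glycoprotein, was at least 5.11-fold higher, with 418 in late pregnant ovary and again under the floor in early pregnant ovary. The acute phase and transport list gave 2 of 8 measured members higher and 1 lower, against 1.31% and 2.37% of all measured genes. Its median was -0.21, so these genes did not move as a list.

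ACOT7, which hydrolyses acyl-CoA, had 4365 in late and 1088 in early pregnant ovary, 4.01-fold higher. PCK1, the cytosolic enzyme that commits carbon to gluconeogenesis, had 674 and 223, 3.03-fold higher. ACADSB, which oxidises short branched acyl chains, had 6596 and 3043, 2.17-fold higher, with a further probe set at 0.98 on the log2 scale. PTHLH, parathyroid hormone-related peptide, had 4314 and 1554, 2.78-fold higher. SFTPC, known as a lung surfactant protein, was 5.10-fold higher, ADGRG1, an adhesion receptor, 4.22-fold, HIGD1B 3.45-fold, CAPSL 3.23-fold and RASGRP1, an activator of Ras, 3.03-fold.

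Some genes were read above the floor in late but not in early pregnant ovary. OPRM1, the mu opioid receptor, had 514 against a signal under the floor in early pregnant ovary, at least 6.30-fold higher. CKM, muscle creatine kinase, was at least 3.84-fold higher, and KCNE3, an accessory potassium channel subunit, at least 3.31-fold. ASF1B, a histone chaperone used in DNA replication, was at least 3.01-fold higher with 246. In non-pregnant ovary CKM and ASF1B lay above the floor, at 108 and 192, and OPRM1 and KCNE3 lay under it.

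Mitosis and DNA replication genes were higher in late pregnant ovary by small amounts. Of 42 genes listed, 27 had a named probe set. All 27 measured members had ratios above 0, against 52.4% of all measured genes, with a median log2 ratio of 0.63, and 2 reached 2-fold. For KIF20A and MCM4 the early signal lay under the floor, so their ratios could only be above 0. CCND2, a cyclin that granulosa cells use to enter the cycle, had 2639.6 in late and 1016 in early pregnant ovary, and CDC20, an activator of the anaphase-promoting complex, had 446 and 207. CCNB1, the mitotic cyclin, had 3032 and 1519.9, just short of 2-fold. MCM3 of the replicative helicase, AURKB and PLK1, both mitotic kinases, and TOP2A, topoisomerase II, had log2 ratios of 0.96, 0.90, 0.88 and 0.79. TYMS, which makes thymidylate, had the lowest at 0.070. In early against non-pregnant ovary, a comparison that shares the early pregnant array, the list median was -0.44.

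Outside that list, POLE2, a subunit of DNA polymerase epsilon, had 366 in late and 124 in early pregnant ovary, 2.95-fold higher, and a further probe set had a log2 ratio of 1.16. PCLAF, which binds the replication clamp, had 2085 and 862, 2.42-fold higher, and CHEK1, a checkpoint kinase, 384 and 161, 2.38-fold higher. PCLAF and CHEK1 were picked after their values were seen. Early pregnant ovary was the lowest of the 3 ovary arrays for POLE2, PCLAF and CHEK1, which had 256, 1791 and 404 in non-pregnant ovary.

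Mitochondrial and lipid genes showed the same kind of small shared shift. Of 30 respiratory chain genes, 28 had ratios above 0, against 52.4% of all measured genes, with a median of 0.33 and 1 at 2-fold. That gene was ATP5I, an ATP synthase subunit, with 1302 in late and 508 in early pregnant ovary. Non-pregnant ovary had 2091 for ATP5I, above both. SDHC of complex II had a log2 ratio of 0.63, and NDUFC1 of complex I 0.63. Of 26 genes of fatty acid uptake, storage and oxidation, 24 had ratios above 0, with a median of 0.29. DGAT2, which makes triglyceride, had 256 and 115, a log2 ratio of 1.16, while FABP5, a fatty acid carrier, had 0.68 and LPL, lipoprotein lipase, 0.64. A further probe set had 1.0 for FABP5 and 0.04 for LPL.

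Protein turnover and redox genes followed with smaller medians. The constitutive proteasome had 25 of 27 members above 0, against 52.4% of all measured genes, and a median of 0.24. Endoplasmic reticulum folding and stress genes had 15 of 19 above 0 and a median of 0.21, led by SDF2L1 at 0.82. Antioxidant and glutathione enzymes had 22 of 28 above 0 and a median of 0.20. Cytosolic ribosomal proteins went the other way, with 47 of 54 below 0, against 47.5% of all measured genes, and a median of -0.10, which came to -0.0069 under quantile normalization. None of these 4 lists had a member at 2-fold.

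**Figure D3:**
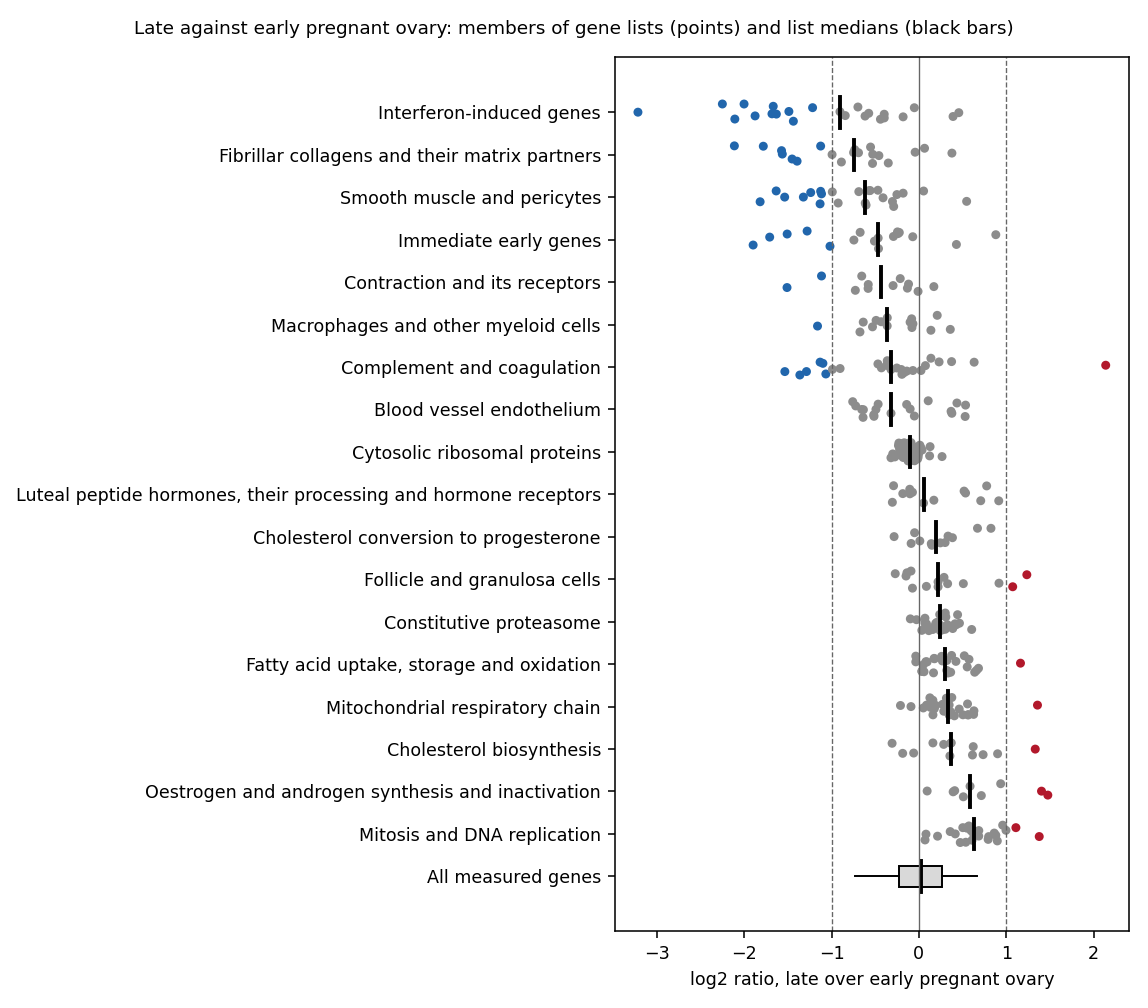
Log2 ratio of late over early pregnant ovary for each measured member (points) of 18 gene lists, with list medians as black bars; red and blue points are at 2-fold or more higher or lower. The box at the bottom shows the middle 50% of all measured genes with whiskers at the 5th and 95th percentiles. Interferon-induced genes have the lowest median of those drawn, -0.90, and mitosis and DNA replication genes the highest, 0.63.

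The interferon-induced genes, which cells switch on in antiviral defence and, in pigs, in the uterus around implantation, were lower in late pregnant ovary. The list names 46 genes, 25 of them with a named probe set. Of 23 measured, 11 were 2-fold or more lower and 0 higher, 21 had ratios below 0, and the median log2 ratio was -0.90. The shares over all measured genes were 2.37% lower by 2-fold and 47.5% below 0. RSAD2, an antiviral radical enzyme, had 75.1 in late and 759 in early pregnant ovary and was at least 9.29-fold lower. MX1, a GTPase that blocks virus replication, had 453 and 2156, 4.76-fold lower. ISG15, a ubiquitin-like modifier, had 467 and 1872, a log2 ratio of -2.00.

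Others of the list were lower as well. XAF1, a pro-apoptotic interferon target, was 4.31-fold lower with 94 in late and 405 in early pregnant ovary. IFIT1, which binds foreign RNA, was 3.67-fold lower, and its further probe sets were lower too. USP18, which removes ISG15, was 3.21-fold lower, and IRF9, which carries the interferon signal to DNA, 3.18-fold lower. IFIT3, the guanylate-binding proteins GBP1 and GBP2, and the RNA sensor DDX58 had log2 ratios of -1.63, -1.49, -1.44 and -1.22. IRF1 and PML, also interferon targets, had -0.18 and at least 0.39, so the list did not move as a block.

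The early pregnant array was not the top of the 3 ovary arrays for most of these genes. Across non-pregnant, early pregnant and late pregnant ovary, MX1 had 9325, 2156 and 453. RSAD2 had 2412, 759 and 75.1, and ISG15 6401, 1872 and 467. GBP1 differed, with 1973, 2658 and 947 at the same stages, and GBP2 had 316, 467 and 173. For GBP1 and GBP2 the early pregnant signal was the highest, and for MX1, RSAD2 and ISG15 the non-pregnant one. Both stage steps share the early pregnant array, so its error enters both.

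Uterine tissue of the same stages, on arrays of its own but perhaps from the same sows, also had lower interferon-induced genes in late pregnancy. There 14 of 25 measured members were lower by 2-fold and 0 higher, the median being -1.75, against 5.56% of all genes lower in that tissue. MX1 had 299.9 in late and 1951 in early pregnant uterine tissue, and RSAD2 had 69.3 and 1076. Lymphocyte, macrophage and antigen presentation genes in the ovary, given below, were flat or only a little lower by their list medians. Several lymphocyte genes lay close to the floor, which limits how low their ratios could go. The part of these lists in the interferon result was not tested.

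**Figure D4:**
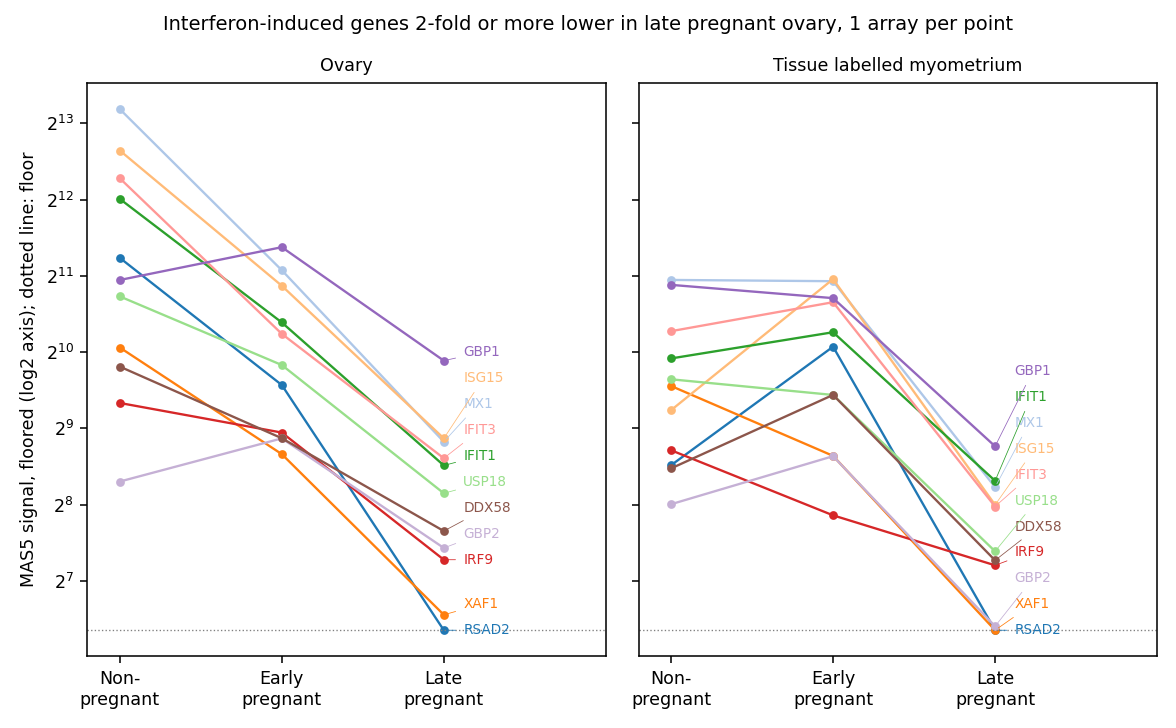
Floored MAS5 signal on a log2 axis for the 11 interferon-induced genes that were 2-fold or more lower in late pregnant ovary, over non-pregnant, early pregnant and late pregnant stages in ovary (left) and tissue labelled myometrium (right), 1 array per point. Every line is lower at the late than at the early pregnant point; in ovary MX1 has 453 at the late and 2156 at the early pregnant point, and RSAD2 reaches the floor in both tissues.

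Connective tissue genes were lower in late pregnant ovary. The list of fibrillar collagens and matrix partners names 33 genes, 22 with a named probe set. Of 20 measured, 7 were 2-fold or more lower and 0 higher, 18 had ratios below 0, and the median was -0.74. Over all measured genes, 2.37% were lower by 2-fold and 47.5% had ratios below 0. ASPN, asporin, a small proteoglycan of collagen fibres, had 201 in late and 869.6 in early pregnant ovary, 4.32-fold lower. LOX, which crosslinks collagen, had 697 and 2396, 3.44-fold lower. COL3A1, the chain of type III collagen, had 86.2 and 256, with the late signal close to the floor of 81.7.

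Other matrix genes differed in the size of their ratios. COL1A2, a chain of type I collagen, had 1986 in late and 4332 in early pregnant ovary, a log2 ratio of -1.12. FN1, fibronectin, had 1048 and 2757, a log2 ratio of -1.39. BGN, biglycan, and THBS2, a matricellular protein, had log2 ratios of -1.56 and -1.45, while DCN, decorin, and LUM, lumican, had -0.69 and -0.53. VCAN, versican, and SERPINH1, the collagen chaperone, were the only members above 0, at 0.064 and 0.38. Outside the list, PTN, pleiotrophin, and PRELP, a matrix proteoglycan, both picked after their values were seen, had -1.12 and -1.32.

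Smooth muscle genes were lower alongside the matrix. Of 28 genes listed, 23 had a named probe set. Of 23 measured members, 8 were 2-fold or more lower and 0 higher, 21 had ratios below 0, and the median was -0.61. The matching shares of all measured genes were 2.37% lower by 2-fold and 47.5% below 0. CNN1, calponin, which binds actin in contractile cells, had 563 in late and 1746 in early pregnant ovary, 3.10-fold lower, and 546 in non-pregnant ovary. SYNM, an intermediate filament protein, had 132 and 464, 3.53-fold lower. DES, desmin, had 170.1 and 494, 2.90-fold lower.

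The size of the smooth muscle ratios varied with the gene and in places with the probe set. ACTG2, enteric smooth muscle actin, had 2014 in late and 5036 in early pregnant ovary, a log2 ratio of -1.32, whereas its further probe set had -0.33. TPM2, PLN, TAGLN and MYLK, proteins of the contractile apparatus and its control, had log2 ratios of -1.24, -1.13, -1.12 and -1.11. ACTA2, the smooth muscle actin, was bright and differed little, with 18571 and 22689. The pericyte genes did not follow: RGS5 had 9609 and 6581, a log2 ratio of 0.55, and PDGFRB had 0.053. Among genes of contraction and its receptors, EDNRA, the endothelin A receptor, had 189 and 539, a log2 ratio of -1.51.

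For most matrix and muscle genes at 2-fold the early pregnant array was the high one of the 3. Across non-pregnant, early pregnant and late pregnant ovary, ASPN had 145, 869.6 and 201, and CNN1 546, 1746 and 563. LOX had 956, 2396 and 697 at the same stages. In each of these the late pregnant and non-pregnant signals were closer to each other than to the early pregnant one, which was above both. In early against non-pregnant ovary, which shares the early pregnant array, the matrix median was 0.39 and the smooth muscle median 0.42 on the log2 scale. In uterine tissue of late against early pregnancy the matrix median was 0.51 and the smooth muscle median 0.22 on the log2 scale. The sources used here do not say which piece of each ovary was taken, and the part of sampling in the result was not tested.

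Immediate early genes, which cells switch on within minutes of a stimulus and also during tissue handling, were lower with the stroma. Of 32 genes listed, 20 had a named probe set. Of 17 measured members, 5 were 2-fold or more lower and 0 higher, 15 had ratios below 0, and the median was -0.47. Among all measured genes, 2.37% were lower by 2-fold and 47.5% had ratios below 0. FOS had 1158 in late and 4314 in early pregnant ovary, 3.73-fold lower, and JUN, its partner in the AP-1 transcription factor, 1488 and 4861, 3.27-fold lower. FOSL2, ZFP36, which destabilises cytokine messages, and CYR61, a matricellular protein, had log2 ratios of -1.51, -1.28 and -1.02. EGR1 had -0.74, DUSP1 -0.25 and ATF3 -0.29, and GADD45B was the highest member at 0.88. The sources used here do not give the time between death and freezing, and its part in these values was not tested.

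**Figure D5:**
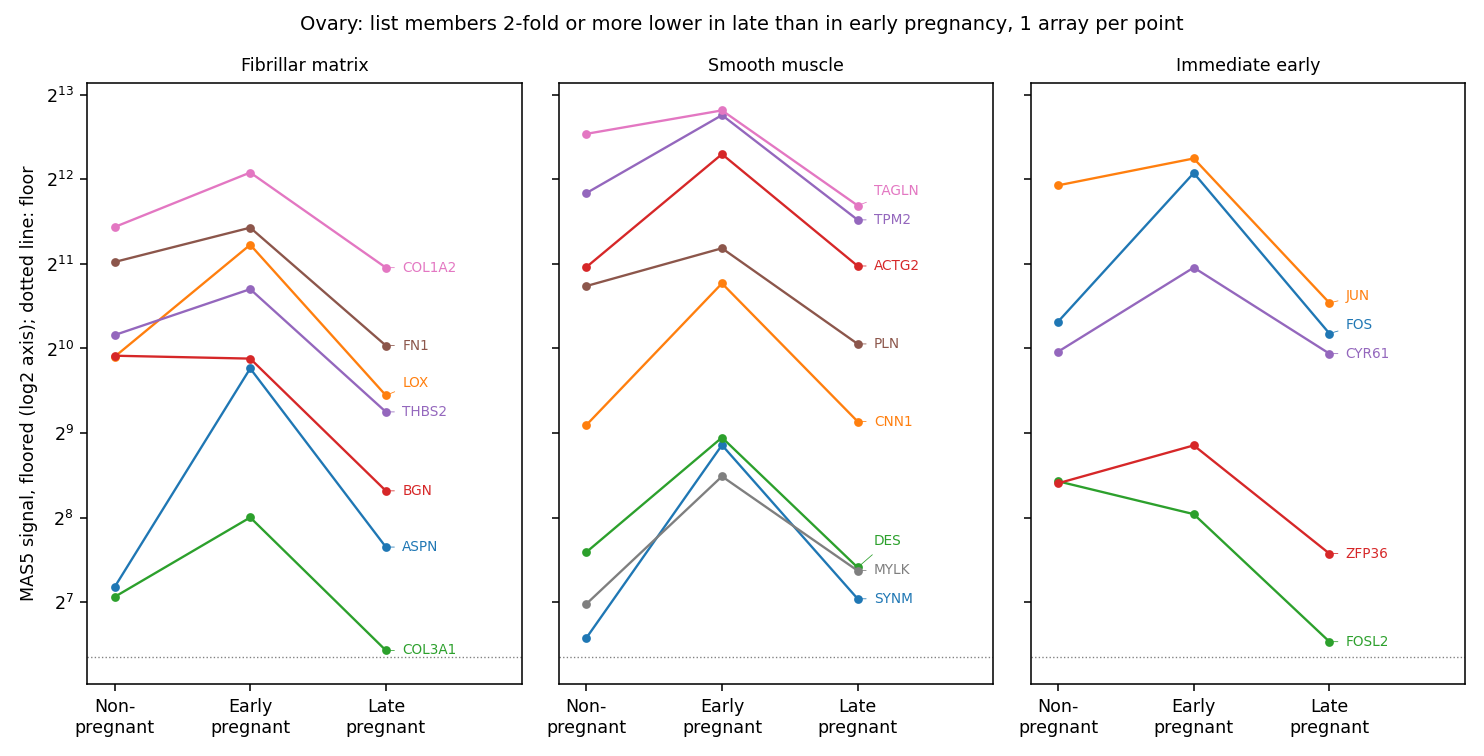
Floored MAS5 signal on a log2 axis in non-pregnant, early pregnant and late pregnant ovary, 1 array per point, for the members of 3 lists that were 2-fold or more lower in late than in early pregnant ovary: 7 matrix, 8 smooth muscle and 5 immediate early genes. The early pregnant point is the highest of the 3 for all of them except BGN and FOSL2, whose non-pregnant points are the highest.

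Genes of the hypoxia response did not move together. Against 2.37% of all measured genes, 3 of 12 in this list were 2-fold or more lower, among them LOX. The others were ADM, adrenomedullin, a peptide that widens vessels, with 455 in late and 1497 in early pregnant ovary, and CITED2, a restraint on hypoxia-inducible factor, with 1896 and 4657. VEGFA, the main vessel growth factor, had a log2 ratio of 0.53, SLC2A1, a glucose carrier, -0.26, and HILPDA -0.0027. Further probe sets had 0.08 and 0.29 for VEGFA and -0.49 for HILPDA.

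Vessel and immune cell markers differed less than the stroma. Of 19 endothelial genes measured, 0 were higher and 0 lower by 2-fold, with a median of -0.32. PECAM1, an endothelial junction protein, had 1758 in late and 1885 in early pregnant ovary, and VWF, von Willebrand factor, had 814 and 1015. The myeloid list had 1 of 15 lower, against 2.37% of all measured genes, and a median of -0.36. That member was LAPTM5, a lysosomal protein of blood cells, at -1.16, while CD163, a haemoglobin scavenger receptor of macrophages, had 0.21.

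T, B and NK cell genes had 0 higher and 0 lower of 12, with a median of -0.087, and JCHAIN, the joining chain of antibodies, had the highest ratio at 0.99. Several of these genes lay close to the floor, which limits how low a ratio could go. CD3G, for one, had 111 in late and 132 in early pregnant ovary, and CD8A 108 and 124. Antigen presentation genes had 0 higher and 0 lower of 21, with a median of -0.27. TAP1, the peptide transporter, had the lowest of them at -0.74. Cytokine and chemokine genes had 1 of 20 lower, against 2.37% of all measured genes, and a median of -0.31. That member was CXCL12, a chemokine of stromal cells, at -1.04.

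Among complement genes, the proteases C1R and C1S and the late component C7 were lower. Of 27 complement and coagulation genes measured, 6 were lower by 2-fold and 1 was higher, and the median came to -0.32. The shares of all measured genes were 2.37% lower and 1.31% higher. C1S and C1R, which start the classical pathway, had 3798 and 2289.8 in late pregnant ovary, against 9768 and 5588 in early pregnant ovary. C7, a component of the membrane attack complex, had 1993 in late and 5773 in early pregnant ovary, a log2 ratio of -1.53, with a further probe set at -1.95. C3, the central component, had -0.25, and C1QC, part of the recognition molecule, -0.36, so the pathway was not lower throughout. The gene that was higher was KNG1, given above.

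Single genes outside the lists were also low in late pregnant ovary. FIBIN, a secreted protein, had 1572 in late and 5791 in early pregnant ovary, 3.68-fold lower. FMO1, a monooxygenase that oxidises foreign compounds, had 1057 and 3127, 2.96-fold lower. DGKZ, a diacylglycerol kinase, was 3.61-fold lower, and TTYH2, a membrane protein, 3.15-fold lower. CASP1, which activates interleukin-1, had a log2 ratio of -1.33 and was the lowest member of the apoptosis list. In that list 2 of 12 were 2-fold or more lower, against 2.37% of all measured genes.

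Some genes that are very bright in early pregnant uterine tissue were lower in late pregnant ovary, and others as bright there were not. The 7 described first were grouped after their values were seen. PLET1, a placenta-expressed transcript and the lowest ratio of all measured genes, had 14.2 in late and 1661 in early pregnant ovary, at least 20.3-fold lower. In early pregnant uterine tissue PLET1 had 32821. RBP4, a retinol carrier, had 40 and 568 in late and early pregnant ovary, at least 6.96-fold lower, but its further measured probe set had 99.9 and, under the floor, 57.4, a log2 ratio of at least 0.29, in the other direction.

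UPTI, a uterine inhibitor of plasmin and trypsin, had 13.8 in late and 314 in early pregnant ovary. SULT2A1, a steroid sulfotransferase, had 35.6 and 309, and PAG6, a pregnancy-associated glycoprotein of trophoblast, 18.8 and 239.8. DPPA5, a marker of pluripotent cells, had 178 and 701, and 478 in non-pregnant ovary. For PLET1, RBP4, UPTI, SULT2A1, PAG6, DPPA5 and SERPINA3-2, a protease inhibitor, the early pregnant ovary signal was between 1.09% and 5.06% of that in early pregnant uterine tissue. In uterine tissue the 7 differed by stage: PLET1, RBP4, PAG6 and SULT2A1 still had 31638, 18751, 28500.2 and 21610.1 in late pregnancy. DPPA5 had 266 in late and 24719.6 in early pregnant uterine tissue, UPTI 5246 and 22272, and SERPINA3-2 3499 and 21492.

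The list of uterine gland products had 1 of 6 measured members lower, RBP4, against 2.37% of all measured genes. It had 0 higher and a median of -0.21. SLPI, a protease inhibitor with 30569 in early pregnant uterine tissue, had 486 in late and 466 in early pregnant ovary. ACP5, the iron-binding acid phosphatase uteroferrin, had 21477 in that tissue, with 354 in late and 398 in early pregnant ovary. UABP-2 had 26905 there, with 87.5 and, under the floor, 75.4. SPP1, osteopontin, an adhesion protein, had 1751 in late and 3188 in early pregnant ovary.

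To see how far this went, the 30 genes with the highest ratio of early pregnant over non-pregnant uterine tissue were listed after the values above had been seen. Of these, 11 lay above the floor in non-pregnant, 20 in early pregnant and 13 in late pregnant ovary. Of all measured genes 2.37% were lower in late pregnant ovary by 2-fold and 1.31% higher. Of the 21 of this list measured in the comparison, 9 were lower and 2 were higher, the median being -0.36. Most of those read on 1 array only were read on the early one, where the ratio could only be below 0. The count and the median are therefore partly set by the filter. The 2 that were higher were DPP4 and HSD17B2. The 9 lower ones include PLET1, RBP4, UPTI, SULT2A1, PAG6 and DPPA5, which had been picked above for their values. For these the list repeats what was already given. The summed signal of the 30, which include STAR, HSD3B1 and PLBD1, all bright in ovary itself, was 71239 in late and 59988 in early pregnant ovary. Epithelial markers of that tissue did not all follow: CDH1, E-cadherin, had 127 in late and 322 in early pregnant ovary, EPCAM 104 and 132, KRT8 279 and 249, and KRT18 lay under the floor on both. The list of trophoblast and placental markers had 3 of 5 measured members lower, PLET1, PAG6 and GATA2, a transcription factor. The median of that list was -1.27, below the -0.90 of the interferon list, but it rests on 5 genes. Of these, PLET1 and PAG6 lay above the floor only in early pregnant ovary, so their ratios could only be below 0. The epithelial list had 1 of 11 members lower, with a summed signal of 3153 in late and 4573 in early pregnant ovary. LGALS3 weighed most in that sum, with 1211 in late and 2191 in early pregnant ovary. Its signal in non-pregnant ovary was higher still, at 2957. The part of uterine or placental RNA in the early pregnant ovary values was not tested.

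The remaining lists held few members at 2-fold, beside 1.31% higher and 2.37% lower over all measured genes. Steroid receptors and cortisol-inactivating enzymes had 0 higher and 0 lower of 10, and HSD11B2, which inactivates cortisol, had 0.74. Glycolysis had 1 higher of 18, with a median of 0.16, autophagy and lysosome 0 of 22 with 0.021, and amino acid metabolism 1 of 23, TDH. The insulin-like growth factor system had none of 10 at 2-fold, with PEG10, an imprinted retrotransposon-derived gene, lowest at -0.98 and IGFBP2, a binding protein, highest at 0.60. Matrix proteases had 1 lower of 12, ADAMTS1, a protease of the ovulating follicle, at -1.01. Oocyte genes had 1 higher of 6, GDF9, an oocyte growth factor, with 266 in late and 129.8 in early pregnant ovary, while the zona pellucida genes ZP3 and ZP4 had -0.71 and -0.26.

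Signalling and other cell type lists differed little. For comparison, 1.31% of all measured genes were higher and 2.37% lower by 2-fold. The TGF-beta, activin and BMP list had 2 higher of 18, INHA and FST, with a median of -0.30, and the Wnt list had 0 higher and 0 lower of 8. Basement membrane genes had 0 lower of 6, with a median of -0.36. Cytosolic heat shock proteins had 1 lower of 17, CRYAB, a small chaperone of muscle and lens, with 167 in late and 367 in early pregnant ovary. Housekeeping genes had 0 higher and 0 lower of 13, with a median of 0.036. HBB, the haemoglobin beta chain of red blood cells, had a log2 ratio of 0.22.

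The same stages of uterine tissue, which share no array with the ovary comparison, served to see which differences were held in common. The design text counts 3 pigs at each stage, so both tissues of a stage may come from the same sows. A difference between animals and one between stages then cannot be told apart. In uterine tissue 321 genes (5.72%) were 2-fold or more higher and 312 (5.56%) lower in late pregnancy, more than in ovary in both directions. Of 124 genes lower in late pregnant ovary and measured in both tissues, 26 were also lower in uterine tissue, which is 21.0% of the ovary list and 9.52% of the uterine list. Over all genes measured in both tissues, 5.22% were lower in uterine tissue. The shared lower genes included MX1, ISG15, RSAD2, GBP1, LOX, ADM, C1S, COL3A1 and CASP1. Another 16 of the 124 were 2-fold or more higher in uterine tissue, against 4.98% of all genes measured in both tissues.

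Of 61 genes higher in late pregnant ovary and measured in both tissues, 10 were also higher in uterine tissue, which is 16.4% of the ovary list and 3.85% of the uterine list. Over all genes measured in both tissues, 4.98% were higher in uterine tissue. The shared higher genes included HP, TF, RARRES1, a retinoic acid responsive gene, and RGCC, a regulator of the cell cycle. HP had 30784 in late and 893 in early pregnant uterine tissue. A larger number, 15 of the 61, were 2-fold or more lower there, against 5.22% of all genes measured in both tissues. The cell cycle list was one where the tissues parted, with a median of 0.63 in ovary and -0.87 in uterine tissue. There 12 of 26 measured members were 2-fold or more lower in late pregnant uterine tissue. With 1 array for each tissue and stage, this difference between tissues was not tested.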

How the data were processed

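Gene expression was read on Affymetrix single-channel arrays from total RNA extracted with Trizol, per the labels' protocols. The authors deposited linear intensity values, for which the submitters' processing notes name MAS5. The sources used here give no version or options. MAS5 turns the probes of each set into 1 signal, and the scaling it applies to an array hides any change in total RNA. The table held 24123 probe sets, of which 124 controls were left out. The platform annotation gave 1 symbol to 10069 probe sets, several to 198 and none to 13732, and 9774 probe sets of 6567 genes were named. No genome or sequence table was used here.

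From these, log2 ratios of late over early pregnant ovary were computed after raising signals to a floor at the 40th percentile, with Python 3.11.15, numpy 2.4.6 and pandas 2.3.3. Calls were at 2-fold. The ratio and counting rules were run on simulated signals with larger changes set well above the floor. That run cannot show how calls near 2-fold or near the floor behave. Groups came from the sample titles. With 1 array a group there was no test, and the small number of arrays limits precision. Named genes were the 15 highest and 15 lowest measured on both arrays, up to 6 per direction by bound, up to 6 members of each of 50 gene lists by absolute ratio, and cell type markers. Other list members and genes were named after their values were seen, to account for calls or to show members that did not follow. The comparison and lists were chosen with earlier results of these data known. Alternatives were a floor at the 25th or 60th percentile, no floor but a pseudocount of 16, quantile normalization, median centring, stricter and no filters, and averaging over probe sets.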

Additional observations from a re-analysis of the deposited data

Results flagged for a closer look

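Each of the following genes was 2-fold or more higher in late than in early pregnancy in one tissue and 2-fold or more lower in the other. The values are the ovary log2 ratio minus the uterine log2 ratio, each from 1 array per tissue and stage, and the difference between tissues was not tested. The genes were taken from those named by rule. For HSD17B1, PCK1, THBS2 and DES a uterine signal lay under the floor, so the difference is a lower bound on its size.

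Among genes higher in late pregnant ovary and lower in late pregnant uterine tissue, the steroid enzymes HSD17B1, HSD17B2 and HSD17B7 had differences of 4.14, 4.08 and 2.80. HSD17B1 had 14 in late and 545 in early pregnant uterine tissue. DPP4 had a difference of 5.53, with 1449.5 in late and 14053 in early pregnant uterine tissue. PCK1 had 3.77, ACOT7 3.11, FST 2.88 and CDC20 2.29.

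Among genes lower in late pregnant ovary and higher in late pregnant uterine tissue, THBS2 had a difference of -3.67, with 380.5 in late and 60.9 in early pregnant uterine tissue. PTGDS had -3.22, DES -2.63, FN1 -2.61 and CRYAB, a small heat shock protein, -2.35. FN1 had 16505 in late and 7132 in early pregnant uterine tissue.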

How the results depend on the processing

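No paired analysis was possible because each group has 1 array, and for the same reason no replicate could be left out. The counts depended on the floor. With the floor at the 25th percentile (33.7), 392 probe sets passed 2-fold upward and 893 downward, and 224 genes were lower. With the floor at the 60th percentile (246), 104 probe sets were higher and 181 lower, and 42 genes higher and 63 lower. A higher floor shortens ratios of dim genes by construction. Under the other settings each of these counts stayed within 1.5 times of the reported one. No named gene at 2-fold or more changed direction under any of the 8 settings. With the floor at the 60th percentile, 3 immediate early genes were lower and 1 gene each of the cell cycle and oestrogen lists higher. Averaging over probe sets also left 1 oestrogen gene higher, since HSD17B2, whose further probe set was under the floor in early pregnant ovary, then had a log2 ratio of at least 0.92. The epithelial list's median was -0.34 as reported and 0.062 with the floor at the 60th percentile. Lists with fewer than 4 measured genes under a setting got no median there. Signals near the floor, such as that of COL3A1 in late pregnant ovary, limit what a ratio can show.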
